A study of Mus musculus with 17 samples.

Results

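The genes described here are 8 members of the membrane-spanning 4-domains A (MS4A) family that are known from macrophages and lymphocytes, measured in mouse lung: Ms4a4a, Ms4a7, Ms4a6d, Ms4a6c, Ms4a8a, Ms4a6b, Ms4a4c and Ms4a4b. They are 8 of the 19751 genes that the arrays measured by a probe set with a single gene symbol. They were selected on their levels in these arrays, so their differences between groups are given as a description; where genes past a threshold are counted among them, the count describes them and is no test. Another 12 genes of the family or related to it (10 Ms4a genes, Tmem176a and Tmem176b) were measured as well and serve for comparison.

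MS4A proteins cross the cell membrane with several helices and sit beside immune receptors, whose signalling some of them modify. The founding members are MS4A1, the CD20 antigen of B cells, and MS4A2, the beta chain of the high-affinity IgE receptor of mast cells and basophils. In macrophages, MS4A4A associates with the beta-glucan receptor dectin-1, while mouse Ms4a4b is known from T cells, where it associates with the costimulatory receptor GITR. The family is a gene cluster that has expanded by duplication, so several members are close copies of each other.

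The study asked how blockade of RGMb, a membrane-anchored protein that binds both neogenin and bone morphogenetic proteins, affects allergic airways. Lung RNA of 17 Balb/c mice was read on Affymetrix Mouse Gene 1.0 ST arrays, with each mouse on an array of its own. The saline group (6 mice) was sensitized and challenged with saline, the isotype group (5 mice) was sensitized and challenged with ovalbumin, a protein allergen, and given an isotype control antibody, and the anti-RGMb group (6 mice) had ovalbumin and the monoclonal antibody aRGMB. The labels name no antibody for the saline mice, no anti-RGMb group without ovalbumin and no ages. An effect of the isotype antibody therefore cannot be told apart from that of ovalbumin, and an effect of anti-RGMb on the unchallenged lung was not measured. The mice fall into 2 experiments: experiment 1 holds 3 mice of each group (mice 1, 2 and 3), and experiment 2 holds 3 saline, 3 anti-RGMb and 2 isotype mice (mice 1-2, 2-2 and 3-2). The design text gives these 2 sets by their sizes as replicates of the experiment, and each mouse was placed by the ending of its name.

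Median intensities of the arrays were 120 to 125 for experiment 1, against 362 to 386 for experiment 2. Every fit therefore had a term for the experiment, and the value given for a mouse is its log2 intensity minus the saline mean of its own experiment. The lowest correlation between arrays of an experiment was 0.975 in experiment 1 and 0.968 in experiment 2. All 13 lung identity markers, such as the surfactant protein genes, stood at or above percentile 42.2 of genes in every array, and no array held a value of 0. The 17 mice limit the precision of every value, and p-values set a difference between groups against the spread of these mice around the fit.

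The 18 Ms4a genes measured here lie on chromosome 19 in the RefSeq annotation, and all 8 genes described here are among them. Ms4a genes without a single-symbol probe set were not counted or placed in the order. The 250 bases before the gene start are printed for 6 of them: the pair with the largest differences between groups (Ms4a4a and Ms4a7), and the near copies Ms4a6c with Ms4a6b and Ms4a4c with Ms4a4b. The sequences are those of RefSeq on GRCm38.p6, written 5′ to 3′ on the gene's strand, at chr19:11375238-11375487 (plus strand) for Ms4a4a, chr19:11336147-11336396 (minus strand) for the first of 2 starts of Ms4a7, chr19:11469118-11469367 (plus strand) for Ms4a6c, chr19:11518309-11518558 (plus strand) for Ms4a6b, chr19:11407411-11407660 (plus strand) for Ms4a4c and chr19:11443308-11443557 (plus strand) for Ms4a4b. Capitals mark matches to any of the motifs named after the sequences.
Ms4a4a: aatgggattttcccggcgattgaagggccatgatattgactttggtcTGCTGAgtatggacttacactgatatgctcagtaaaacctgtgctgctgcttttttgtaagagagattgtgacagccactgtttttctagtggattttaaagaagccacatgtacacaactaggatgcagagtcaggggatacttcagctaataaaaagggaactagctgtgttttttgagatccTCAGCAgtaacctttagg
Ms4a7: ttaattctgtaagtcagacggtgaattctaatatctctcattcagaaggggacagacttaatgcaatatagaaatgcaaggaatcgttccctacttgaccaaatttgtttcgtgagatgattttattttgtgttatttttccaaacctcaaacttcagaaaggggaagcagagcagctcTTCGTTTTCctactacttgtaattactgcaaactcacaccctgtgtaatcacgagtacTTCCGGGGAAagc
Ms4a6c: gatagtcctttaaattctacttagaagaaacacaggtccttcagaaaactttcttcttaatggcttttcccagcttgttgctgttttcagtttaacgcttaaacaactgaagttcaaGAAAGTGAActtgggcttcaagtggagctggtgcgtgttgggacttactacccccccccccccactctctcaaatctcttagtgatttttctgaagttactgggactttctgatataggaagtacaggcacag
Ms4a6b: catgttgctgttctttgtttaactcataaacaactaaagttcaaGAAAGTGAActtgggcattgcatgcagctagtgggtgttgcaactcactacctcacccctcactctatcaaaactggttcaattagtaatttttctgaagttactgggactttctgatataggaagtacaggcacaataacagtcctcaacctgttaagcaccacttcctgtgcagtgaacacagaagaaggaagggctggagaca
Ms4a4c: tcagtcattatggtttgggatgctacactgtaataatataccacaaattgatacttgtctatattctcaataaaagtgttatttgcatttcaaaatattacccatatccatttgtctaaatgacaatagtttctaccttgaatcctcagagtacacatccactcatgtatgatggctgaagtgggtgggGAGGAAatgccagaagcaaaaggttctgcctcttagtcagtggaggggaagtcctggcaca
Ms4a4b: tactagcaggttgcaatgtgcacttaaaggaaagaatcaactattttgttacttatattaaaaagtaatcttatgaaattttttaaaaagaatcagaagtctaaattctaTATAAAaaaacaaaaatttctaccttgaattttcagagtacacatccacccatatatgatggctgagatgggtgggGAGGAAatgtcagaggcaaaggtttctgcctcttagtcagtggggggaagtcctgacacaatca

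Windows of 300 bases, from 250 before to 50 after a gene start, were found for 7 of the 8 genes (8 windows, 2 of them for Ms4a7), and each was searched on both strands, with overlaps between motifs allowed. GAAANNGAA, the core of the interferon response element, was in 4 of the 8 windows (Ms4a6b, Ms4a6c and both of Ms4a7), against 8.56% of all 32851 promoter windows. GAGGAA, the core of PU.1, a transcription factor of macrophages and B cells, was in 3 windows (28.3% of all), TGANTCA (AP-1) in 3 (7.81%), the STAT6 motif (TTC and GAA with any 4 bases between them) in 2 (Ms4a6b and Ms4a7; 6.95%), TGCTGA (the core of the MAF site) in 2 (19.5%) and TATAAA (the TATA box) in 1 (13.6%). TTCNNNGAA (other STAT factors, 8.30% of all) and TTGCNNAA (C/EBP, 10.8%) had no match in the 8 windows. Of the 28 pairs of windows, aligned over the 250 bases before the start, Ms4a4b and Ms4a4c shared the most bases, 183 of 232 aligned (78.9%), followed by Ms4a6b and Ms4a6c with 149 of 175 (85.1%). Ms4a6b and Ms4a6c both held GAAAGTGAA, 206 and 133 bases before the start. The 4 windows with the interferon motif are thus not separate, as these 2 genes are near copies and the other 2 windows are of Ms4a7. Both Ms4a4b and Ms4a4c had the PU.1 core, 64 and 61 bases before the start. A match is a run of letters and not a measured binding site.

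Ovalbumin with the isotype antibody went with higher levels of most of these genes, and the macrophage members led. Ms4a4a (8.31-fold), Ms4a7 (7.79-fold) and Ms4a6d (5.50-fold) had the largest differences from saline, followed by Ms4a6c (3.66-fold), Ms4a8a (2.57-fold) and Ms4a6b (1.76-fold). In anti-RGMb mice the first 5 of the genes, in the order Ms4a4a, Ms4a7, Ms4a6d, Ms4a6c and Ms4a8a, were lower than in isotype mice and still above saline. Of the pair that stands between Ms4a4a and Ms4a6c on the chromosome, Ms4a4b differed little (-0.12 for isotype minus saline), and Ms4a4c was 0.56 higher, with 0.27 ± 0.28 in experiment 1 and 0.98 ± 0.31 in experiment 2. In whole lung, more cells of a type and more RNA per cell cannot be told apart.

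Of the 8 genes, 6 were higher in isotype than in saline mice past the limma threshold (adjusted p under 0.05) and 0 lower, where 14.6% of all 19751 genes were higher and 21.0% lower. The isotype and saline mice did not overlap in either experiment for 6 genes, against 11.7% of all genes, with isotype higher. Between anti-RGMb and isotype mice 5 genes were lower and 0 higher (10.0% and 11.1% of all genes), and 3 (Ms4a4a, Ms4a6d and Ms4a8a) did not overlap (7.26% of all genes). Between anti-RGMb and saline mice 5 genes were higher and 0 lower (4.26% and 2.24% of all genes), and 5 did not overlap (4.70%). The median difference of the 8 genes was 1.62 for isotype minus saline, -0.55 for anti-RGMb minus isotype and 1.07 for anti-RGMb minus saline, beside -0.04, 0.03 and -0.01 over all genes. The last split of all genes depends on the scaling, as 65.6% of the genes past the threshold were higher in anti-RGMb than in saline mice, and 50.5% with arrays centred on their medians. Because the genes were chosen with these comparisons in view, and the comparisons share groups, the counts support nothing beyond themselves.

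Ms4a4a (probe set 10461587) is a surface protein of alternatively activated tissue macrophages. It lay at -0.19 to 0.13 in the saline mice (median 0.05), at 2.87, 3.15, 2.40, 3.43 and 3.37 in isotype mice 1, 2, 3, 1-2 and 2-2, and at 1.09 to 1.69 in the anti-RGMb mice (median 1.36). The groups were separate, with each anti-RGMb mouse above every saline mouse and below every isotype mouse. The fitted differences were 3.06 ± 0.15 (SE) for isotype minus saline, -1.68 ± 0.15 for anti-RGMb minus isotype and 1.38 ± 0.14 for anti-RGMb minus saline. The antibody's difference was thus 54.8% of the rise over saline, on the log2 scale. Ms4a4a stood at rank 25 of the 19751 genes for its rise and at rank 13 for its fall.

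Ms4a7 (probe set 10466200), likewise a gene of mature tissue macrophages, behaved much the same way but with wider spread. Saline mice ranged from -0.17 to 0.20 (median 0.02), isotype mice 1, 2, 3, 1-2 and 2-2 had 2.89, 3.10, 2.15, 3.45 and 3.16, and anti-RGMb mice ranged from 1.21 to 2.29 (median 1.43). All ovalbumin mice were above all saline mice. The isotype and anti-RGMb groups overlapped, since anti-RGMb mouse 1 (2.29) was above isotype mouse 3 (2.15). The differences were 2.96 ± 0.20, -1.41 ± 0.20 and 1.55 ± 0.19, in the order used for Ms4a4a, and 47.6% of the rise was removed. In 3 saline arrays the probe set was below the lower quartile of genes, and the effect of this on the measured rise was not tested.

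The Ms4a6 genes are close copies of each other and graded in size. Ms4a6d (probe set 10466210) lay at -0.74 to 0.57 in saline mice (median 0.02), at 2.26, 2.62, 2.16, 2.54 and 2.72 in isotype mice 1, 2, 3, 1-2 and 2-2, and at 1.37 to 1.84 in anti-RGMb mice (median 1.45). Its groups were separate, and saline mouse 1 (-0.74) was the lowest of all. Its differences were 2.46 ± 0.17, -0.96 ± 0.17 and 1.50 ± 0.16, with 38.9% of the rise removed.

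Ms4a6c (probe set 10461614) lay at -0.12 to 0.10 in saline mice (median 0.01), at 1.57, 2.12, 1.74, 1.91 and 2.05 in isotype mice and at 0.92 to 2.00 in anti-RGMb mice (median 1.08). Of the anti-RGMb mice, 5 were at or below 1.13 and under every isotype mouse, and mouse 1 (2.00) was among the isotype values. The differences were 1.87 ± 0.15, -0.68 ± 0.15 and 1.19 ± 0.15, with 36.3% of the rise removed. Without anti-RGMb mouse 1 the difference from isotype was -0.86 ± 0.09.

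Ms4a6b (probe set 10461622), known from both macrophages and T cells, lay at -0.32 to 0.18 in saline mice (median 0.01), at 0.39, 0.96, 0.57, 0.99 and 1.17 in isotype mice 1, 2, 3, 1-2 and 2-2, and at 0.07 to 1.34 in anti-RGMb mice (median 0.38). Every isotype mouse was above every saline mouse, whereas anti-RGMb mice overlapped both other groups. Its differences were 0.81 ± 0.18, -0.32 ± 0.18 and 0.49 ± 0.17. The difference from isotype was 0.06 ± 0.22 in experiment 1 and -0.80 ± 0.24 in experiment 2, and without anti-RGMb mouse 1 it was -0.52 ± 0.13. In the fit with all mice this difference was not past the threshold. It passed in experiment 2 alone and in 1 of 17 fits that left out 1 mouse.

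Ms4a8a (probe set 10466130), a gene of alternatively activated macrophages and of some epithelia, lies nearer the opposite end of the cluster than the other 7. It was at -0.64 to 0.36 in saline mice (median 0.05), at 1.39, 1.71, 1.47, 1.27 and 1.05 in isotype mice 1, 2, 3, 1-2 and 2-2, and at 0.73 to 1.09 in anti-RGMb mice (median 0.99). Isotype mice were above anti-RGMb mice within each experiment, by narrow gaps. The differences were 1.36 ± 0.14, -0.42 ± 0.14 and 0.95 ± 0.13, with 30.6% of the rise removed. Its place among the 5 genes counted as lower with the antibody was kept in 8 of 17 fits that left out 1 mouse, with differences of -0.48 to -0.35 over all of them. It was lost without anti-RGMb mouse 1, 2, 3, 1-2 or 3-2, or without isotype mouse 1, 2, 3 or 1-2.

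Ms4a4c (probe set 10461594), which is expressed in several leukocytes, lay at -0.08 to 0.10 in saline mice (median -0.02), at -0.18, 0.67, 0.30, 1.07 and 0.89 in isotype mice 1, 2, 3, 1-2 and 2-2, and at 0.02 to 1.53 in anti-RGMb mice (median 0.26). Isotype mouse 1 was below all saline mice, and anti-RGMb mouse 1 was above all other mice. The differences were 0.56 ± 0.24, -0.15 ± 0.24 and 0.41 ± 0.22. The difference of isotype from saline mice was 0.58 ± 0.14 without anti-RGMb mouse 1 and 0.73 without isotype mouse 1. With all mice it was not past the threshold, which it passed in 2 of 17 fits that left out 1 mouse. By experiment, the antibody's difference was 0.34 ± 0.28 and -0.76 ± 0.31.

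Ms4a4b (probe set 10461605), the T cell member, was nearly flat. It lay at -0.09 to 0.07 in saline mice (median 0.00), at -0.43, -0.05, 0.20, -0.14 and -0.08 in isotype mice 1, 2, 3, 1-2 and 2-2, and at -0.37 to 0.79 in anti-RGMb mice (median -0.18). All groups overlapped. The differences were -0.12 ± 0.15, 0.09 ± 0.15 and -0.03 ± 0.14, with 95% intervals of -0.44 to 0.20, -0.23 to 0.41 and -0.33 to 0.28. None of these intervals reaches the difference of Ms4a6b between isotype and saline mice.

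**Figure D1:**
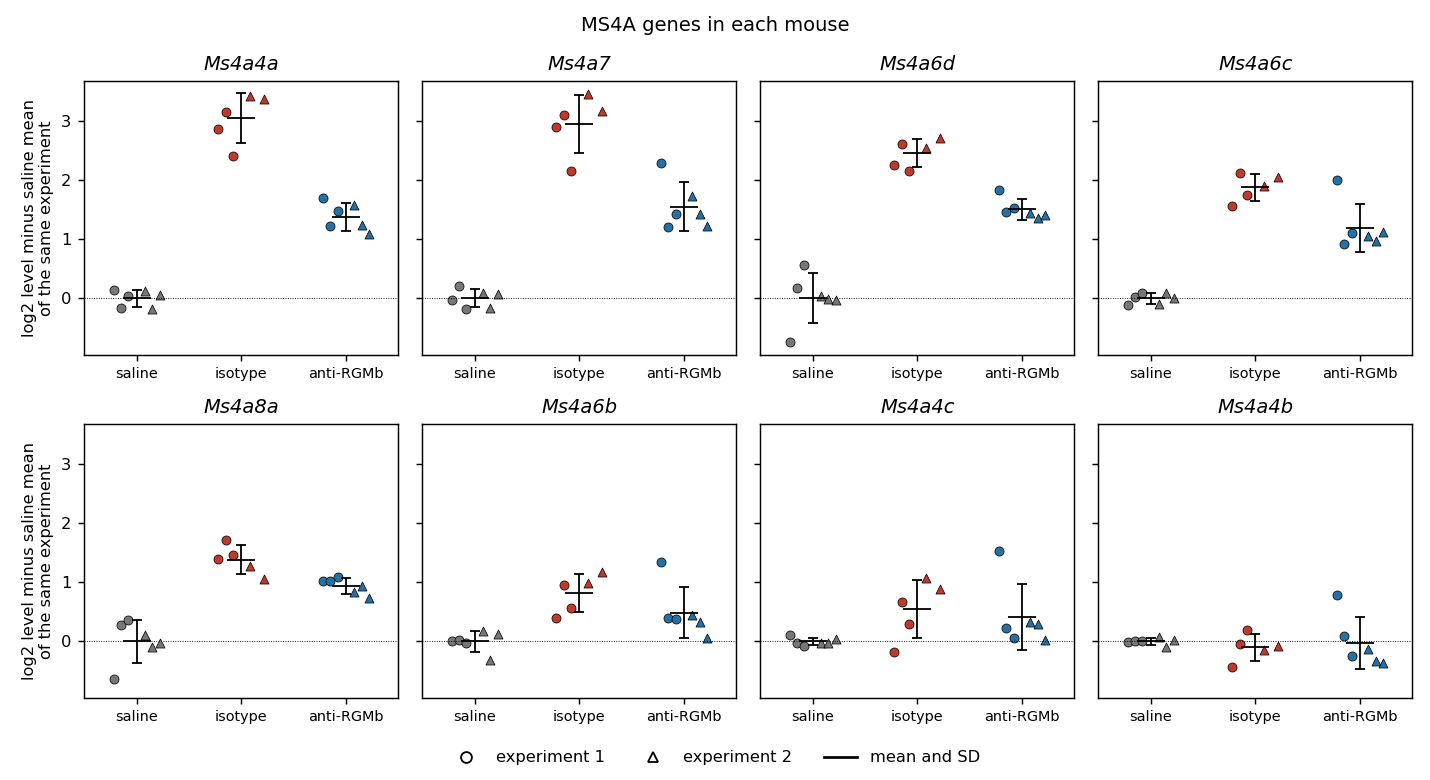
Log2 intensity of each gene minus the saline mean of the same experiment, for every mouse, by group (points, circles for experiment 1 and triangles for experiment 2), with group means and SD. Ms4a4a, at 2.40 to 3.43 in isotype mice and 1.09 to 1.69 in anti-RGMb mice, separates the groups, Ms4a4b does not, and anti-RGMb mouse 1 is the highest anti-RGMb point for Ms4a4c at 1.53.

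The directions held in both experiments for the 5 leading genes, and for all of them but Ms4a8a the antibody's difference was larger in experiment 2. When arrays were weighted by their fit, 3 arrays of experiment 2 had the lowest weights. They were isotype mice 1-2 and 2-2 (0.38 and 0.24) and anti-RGMb mouse 3-2 (0.26), with all others at least 0.77. By size against the error, Ms4a4a and Ms4a7 were past the threshold of the antibody's comparison in experiment 1 alone, and all of the 5 but Ms4a8a in experiment 2 alone. The difference of Ms4a4a between anti-RGMb and isotype mice was -1.35 ± 0.17 in experiment 1 and -2.10 ± 0.19 in experiment 2. Of its rise, 48.0% and 61.8% were removed, and for Ms4a7 39.5% and 55.8%, for Ms4a6d 31.6% and 46.6%, for Ms4a6c 26.0% and 47.2% and for Ms4a8a 31.3% and 27.5%. These percentages use the same isotype mice in both differences, so they are not independent of the rises. The experiments' differences did not differ past the threshold for any gene of the family in the limma interaction test (lowest adjusted p 0.437 for isotype minus saline, 0.267 for anti-RGMb minus isotype and 0.983 for anti-RGMb minus saline), which, with 2 or 3 mice per group and experiment, does not show that they are alike.

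**Figure D2:**
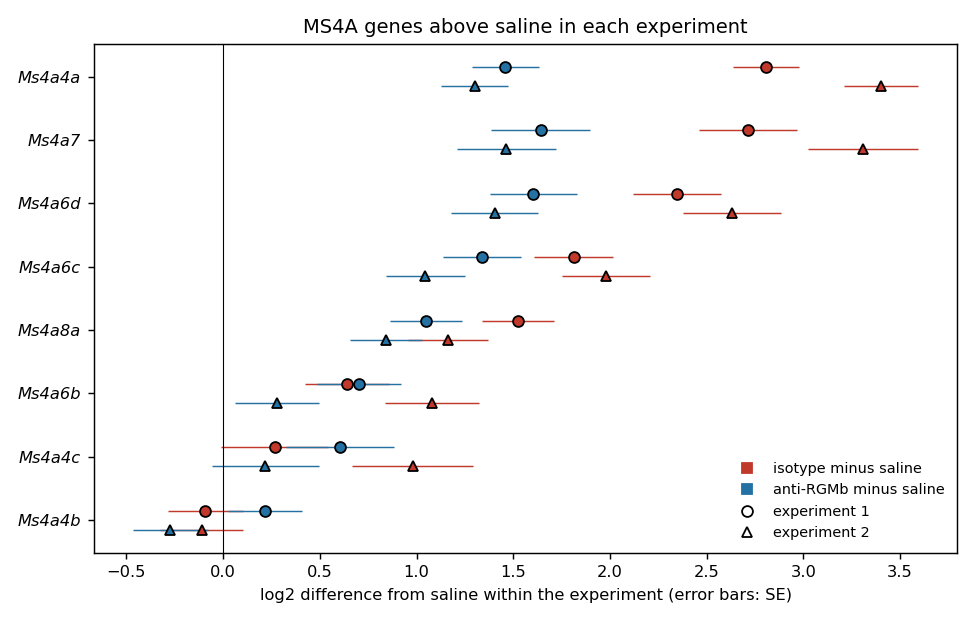
Log2 difference from saline within each experiment (x axis, with SE) for each gene, for isotype mice (red) and anti-RGMb mice (blue), circles for experiment 1 and triangles for experiment 2. In both experiments the anti-RGMb point lies between 0 and the isotype point for the 5 genes at the top, for example 1.30 against 3.40 for Ms4a4a in experiment 2, while Ms4a6b and Ms4a4c do so in experiment 2 alone.

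The remaining genes of the family were taken by name, but they are what the selection of the other genes on their levels had left. Their counts are therefore a description, and p-values are given for single genes. Ms4a1 (CD20) rose by 0.77 ± 0.13 from saline to isotype (adjusted p = 0.000111, limma) and Ms4a2 by 0.66 ± 0.15 (adjusted p = 0.00179), although the Ms4a2 probe set was below the lower quartile in 16 of 17 arrays. The related Tmem176a and Tmem176b, membrane proteins of dendritic cells and macrophages, rose by 0.27 ± 0.07 (adjusted p = 0.0051) and 0.26 ± 0.04 (adjusted p = 0.000128). Ms4a4d, which lies between Ms4a6b and Ms4a6d, fell by 0.59 ± 0.17 (adjusted p = 0.0122), with -0.29 ± 0.21 in experiment 1, not past the threshold, and -0.95 ± 0.24 in experiment 2. In all, 4 of the 12 genes rose and 1 fell, beside 14.6% and 21.0% of all genes.

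Between anti-RGMb and isotype mice, 2 of the 12 genes fell (10.0% of all genes did): Ms4a1 by 0.42 ± 0.13 (adjusted p = 0.0249, limma) and Tmem176b by 0.13 ± 0.04 (adjusted p = 0.0476). The Ms4a1 call was lost without anti-RGMb mouse 1, 3 or 3-2 and without isotype mouse 1-2 or 2-2 (adjusted p up to 0.084), and with the mouse number as a block (-0.37, adjusted p = 0.0529) or with array weights (-0.26, adjusted p = 0.183). Its difference was -0.24 ± 0.16 in experiment 1, not past the threshold, and -0.67 ± 0.18 in experiment 2. The Tmem176b call remained in only 3 of 17 fits without 1 mouse, those without saline mouse 2, anti-RGMb mouse 1-2 or isotype mouse 2-2. It was also lost with the mouse number as a block (-0.12, adjusted p = 0.109), with centred arrays (-0.11, adjusted p = 0.0902) and with quantile normalization (-0.07, adjusted p = 0.196). Ms4a4d was higher by 0.46 ± 0.17 in anti-RGMb mice, not past the threshold (adjusted p = 0.0715). It was past it without isotype mouse 2 or anti-RGMb mouse 3-2 (0.54 each). Over saline, 1 of the 12 genes was higher in anti-RGMb mice and 0 lower (4.26% and 2.24% of all genes). It was Ms4a2 (0.56 ± 0.14, adjusted p = 0.0223, limma), whose probe set was below the lower quartile in all 6 saline arrays. The Ms4a2 call was lost without anti-RGMb mouse 2 or 1-2 or saline mouse 1-2 or 3-2. It was also lost with quantile normalization (0.54, adjusted p = 0.0519) and with a constant of 32 added before the log (0.32, adjusted p = 0.0557).

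Ms4a3, Ms4a5, Ms4a10, Ms4a13, Ms4a19 and Ms4a20, grouped after their values were seen, differed by at most 0.13 log2 units between any pair of groups, and 5 of these 6 (all but Ms4a10) were below the lower quartile of genes in every array. Ms4a15 differed by -0.29 from saline to isotype and by 0.22 from isotype to anti-RGMb, not past the threshold. In the chromosome order of the measured genes, from Ms4a7 to Ms4a6d, the differences of isotype from saline mice were uneven: Ms4a7 and Ms4a4a at 2.96 and 3.06, then Ms4a4c at 0.56 and Ms4a4b at -0.12, Ms4a6c at 1.87 and Ms4a6b at 0.81, Ms4a4d at -0.59 and Ms4a6d at 2.46. Probes of close copies may share signal, and how specific each probe set is was not tested.

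**Figure D3:**
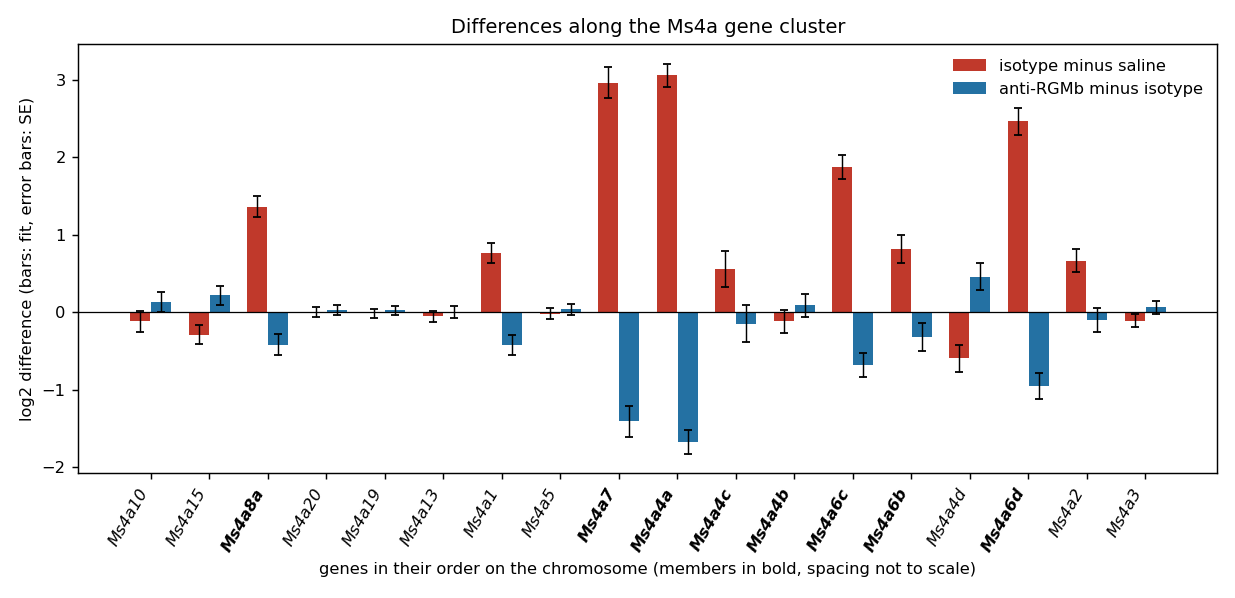
Fitted log2 differences with SE for the 18 measured Ms4a genes in chromosome order (x axis, spacing not to scale, the 8 genes in bold), red for isotype minus saline and blue for anti-RGMb minus isotype. Genes next to each other in this order can differ in size and direction, as Ms4a6b (0.81), Ms4a4d (-0.59) and Ms4a6d (2.46) do.

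Receptors and adaptors that MS4A proteins are known to sit with were examined next, as a list of 8 genes. From saline to isotype 7 rose and 1 fell, and from isotype to anti-RGMb 4 fell, 1 rose and 3 did not pass. Over all genes, 14.6% rose and 21.0% fell in the first comparison, and 11.1% rose and 10.0% fell in the second. Trem2, a lipid receptor of macrophages, rose by 2.14 ± 0.13 (adjusted p = 7.5e-10, limma) and fell by 1.18 ± 0.13 with the antibody (adjusted p = 8.06e-06). Clec7a, which encodes dectin-1, the partner of MS4A4A, rose by 1.60 ± 0.15 and fell by 0.84 ± 0.15 (adjusted p = 0.000804). Its level in anti-RGMb mouse 1 was 1.69 and in the other anti-RGMb mice 0.35 to 0.82. The kinase Syk fell by 0.63 ± 0.07 (adjusted p = 1.57e-05) and the adaptor Tyrobp by 0.43 ± 0.07 (adjusted p = 0.000505), after rises of 1.26 ± 0.07 and 1.10 ± 0.07.

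Kit, the stem cell factor receptor, went the other way. It fell by 0.45 ± 0.07 under ovalbumin (adjusted p = 4.27e-05, limma) and rose by 0.32 ± 0.07 with the antibody (adjusted p = 0.00224). Which lung cells carried the Kit signal was not tested, and of 12 mast cell and basophil markers 9 rose and 2 fell under ovalbumin. The IgE receptor chains Fcer1a and Fcer1g rose by 0.62 ± 0.13 and 1.07 ± 0.15 and were -0.24 ± 0.13 and -0.37 ± 0.15 from isotype to anti-RGMb, not past the threshold; the Fcer1a probe set was below the lower quartile in 16 arrays. The median difference of the list was 1.08 and -0.40 in these 2 comparisons. Tnfrsf18, which encodes GITR, the partner of Ms4a4b, rose by 0.51 ± 0.09. Its difference between anti-RGMb and isotype mice was 0.06 in experiment 1 and -0.51 in experiment 2, and these differed (interaction adjusted p = 0.0427).

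Most interstitial and alternatively activated macrophage genes moved alongside the leading MS4A genes, while alveolar macrophage markers, given with the other cells, were mixed. Of 17 measured interstitial macrophage markers, 13 rose from saline to isotype and 12 fell from isotype to anti-RGMb, with medians of 1.44 and -0.54. Among all genes, 14.6% rose and 10.0% fell in these comparisons. Cd163, a haemoglobin scavenger receptor, rose by 3.14 ± 0.20 and fell by 2.02 ± 0.20 (adjusted p = 2.33e-09 and 5.04e-06, limma), and the mannose receptor Mrc1 rose by 1.63 ± 0.10 and fell by 0.96 ± 0.10 (adjusted p = 8.58e-10 and 5.15e-06). The list's summed level (log2 of the summed intensities, above saline) was -0.09 to 0.07 in saline, 0.73 to 0.98 in isotype and 0.41 to 0.58 in anti-RGMb mice, with no overlap. Of 18 alternatively activated macrophage genes, 16 rose and 13 fell. Pdcd1lg2, a ligand of PD-1, had the smallest p of this list for the antibody. It rose by 3.71 ± 0.15 and fell by 2.35 ± 0.15 (adjusted p = 9.3e-12 and 1.65e-07, limma). In the antibody's comparison 5 genes of this list did not pass, among them Retnla (-0.60, adjusted p = 0.151) and Chil3 (-0.47, adjusted p = 0.108). Some genes are in several lists, so the counts of the lists are not separate. Mrc1 is in both lists of this paragraph, Alox15 and Siglecf are also eosinophil markers, and Kit and Fcer1a are partner genes and mast cell markers. The part of the macrophage genes in the differences of the MS4A genes was not tested.

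Markers of alveolar macrophages and of other cells were counted beside all genes. Of all genes, 14.6% rose and 21.0% fell with ovalbumin, and 11.1% rose and 10.0% fell with the antibody. All 8 measured eosinophil markers rose with ovalbumin and 6 fell with the antibody, and of 12 neutrophil markers 6 rose and 4 fell. Of 13 measured alveolar macrophage markers 6 rose and 3 fell with ovalbumin, and 2 rose and 4 fell with the antibody. Of 10 monocyte markers 6 rose and 4 fell with ovalbumin, and 4 rose and 2 fell with the antibody. Of 12 mast cell and basophil markers 9 rose and 2 fell with ovalbumin, and 2 rose and 4 fell with the antibody. Of 12 natural killer cell markers 4 rose and 2 fell with ovalbumin, and 2 fell with the antibody, where the falls were near the shares of all genes. Of 15 measured T cell markers 11 rose and 1 fell with ovalbumin and 8 fell with the antibody. The summed level of these markers was 0.42 to 0.89 in isotype and -0.07 to 0.63 in anti-RGMb mice. Ms4a4b, the T cell member, did not follow in its group differences. After removal of the mean of each group in each experiment, its Pearson correlation with the mean of these markers was 0.71. Without anti-RGMb mouse 1 it was 0.46. Of 12 measured B cell markers 8 rose and 1 fell with ovalbumin and 8 fell with the antibody, at summed levels of 0.29 to 0.94 in isotype and -0.06 to 0.28 in anti-RGMb mice, beside Ms4a1. The lung identity markers went the opposite way to the leading MS4A genes: of 13, 9 fell and 1 rose with ovalbumin, and 8 rose and 1 fell with the antibody. Their summed level was -0.07 to 0.06 in saline, -0.20 to -0.14 in isotype and -0.13 to -0.01 in anti-RGMb mice. The part of these cell types in the MS4A values was not tested.

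Each gene's most similar genes outside the family were listed by Pearson correlation over the 17 arrays after removal of experiment means. These arrays share the group differences, so the values are descriptions. Ms4a4a was nearest to P2ry6 (r = 0.99), a nucleotide receptor of myeloid cells, Gpr65, a proton sensor, and Neil3, a DNA repair gene of dividing cells. Ms4a7 was nearest to Neil3, Tnip3 and Gpr65 (r of 0.99 each). Ms4a6d was nearest to Ccna2, Fscn1 and Top2a (0.99, 0.99 and 0.98), Ms4a6c to the complement gene Cfb, Apobec1 and the monocyte receptor Ccr2 (0.99, 0.98 and 0.97), and Ms4a8a to Laptm5, Rassf4 and Ctsa (0.97, 0.97 and 0.96).

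The nearest genes of the other 3 included genes of the interferon response. Ms4a4c was nearest to Oas3, Ifi44l and Slfn1 (r = 0.97, 0.97 and 0.95), and Ms4a4b to Gbp7, Xaf1 and Cmpk2 (0.90, 0.89 and 0.89), while Ms4a6b was nearest to B4galnt1, Zbp1 and Tap1 (0.97, 0.97 and 0.96). Oas3, Ifi44l, Xaf1, Zbp1 and Tap1 are known interferon-induced genes. Anti-RGMb mouse 1 was the highest of all mice in Ms4a4c (1.53), Ms4a6b (1.34) and Ms4a4b (0.79). How far these correlations rest on that mouse was not tested.

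Between the MS4A genes themselves, r ran from -0.13 to 0.99 (median 0.80, 28 pairs), and after removal of the mean of each group in each experiment from 0.02 to 0.88 (median 0.45). Within groups the closest pairs were Ms4a4c with Ms4a6b (0.88), Ms4a4b (0.87) and Ms4a6c (0.86), followed by Ms4a6d with Ms4a8a (0.85). Without anti-RGMb mouse 1 the first 3 were 0.68, 0.60 and 0.48, and Ms4a6d with Ms4a8a, at 0.89, was the closest pair. That last pair became 0.34 without saline mouse 1, which was low in Ms4a6d and Ms4a8a (-0.74 and -0.64).

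**Figure D4:**
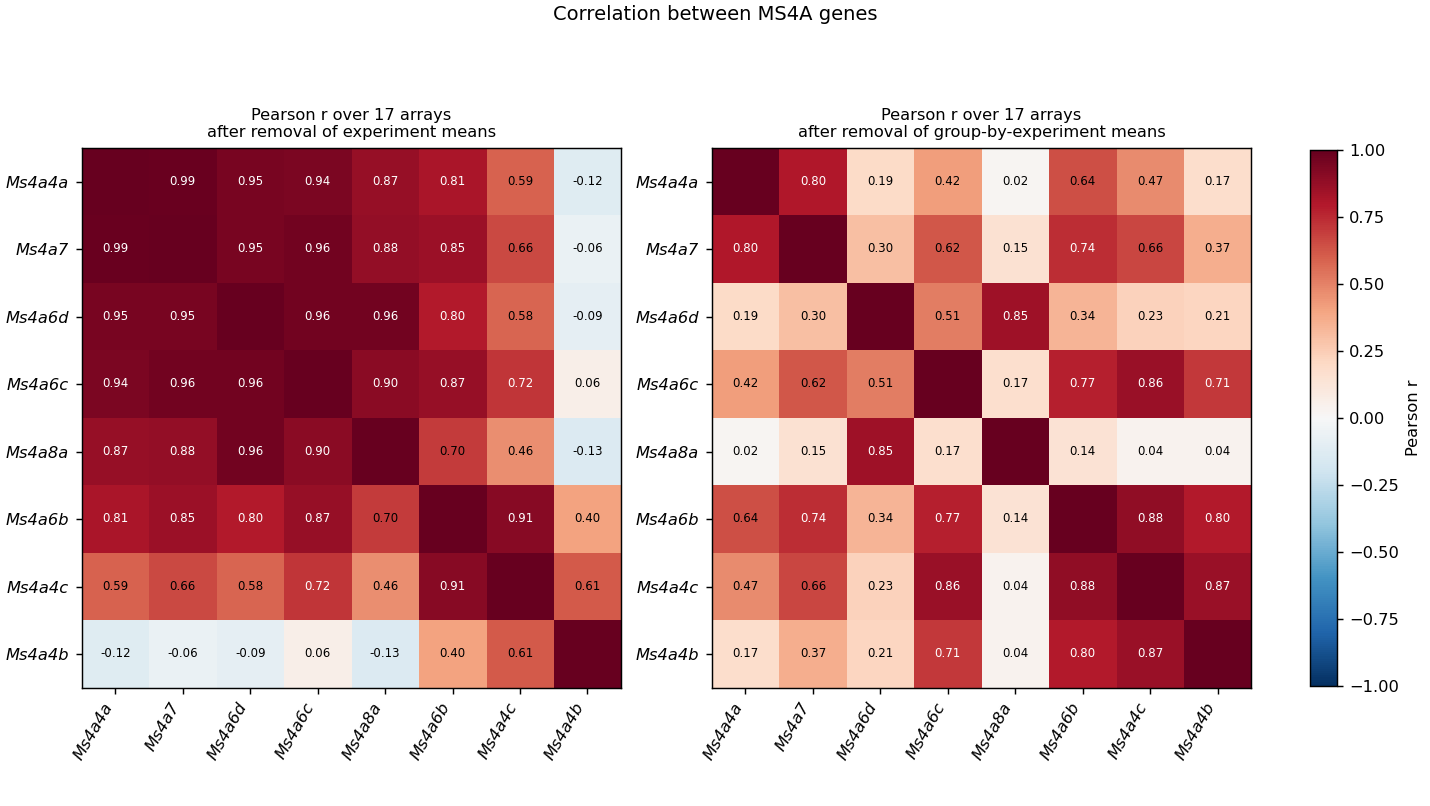
Pearson r between the 8 genes over 17 arrays, on the left after removal of experiment means and on the right after removal of the mean of each group and experiment. On the left, 5 genes form a block with r of at least 0.87, and on the right Ms4a4b, Ms4a4c, Ms4a6b and Ms4a6c form another, with r of at least 0.71, which rests largely on anti-RGMb mouse 1: without it, these r were 0.11 to 0.68.

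Interferon stimulated genes separated mice within the groups. Of 17 such genes measured, 7 rose from saline to isotype (14.6% of all genes did) and 0 passed between anti-RGMb and isotype mice (11.1% of all genes rose and 10.0% fell). The summed level was -0.08 to 0.07 in saline mice, -0.04, 0.50, 0.28, 0.53 and 0.63 in isotype mice 1, 2, 3, 1-2 and 2-2, 1.59 in anti-RGMb mouse 1 and -0.07 to 0.10 in the other 5 anti-RGMb mice. Thus anti-RGMb mouse 1 stood alone, and isotype mice of experiment 2 were above the anti-RGMb mice of that experiment.

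Within groups, the correlation with the interferon list's mean was 0.95 for Ms4a4c, 0.93 for Ms4a6c, 0.90 for Ms4a6b and 0.87 for Ms4a4b, and lower for Ms4a7 (0.65), Ms4a4a (0.41), Ms4a6d (0.37) and Ms4a8a (0.09). Without anti-RGMb mouse 1 the first 4 values were 0.81, 0.71, 0.78 and 0.64, and that of Ms4a7 was 0.12. The interferon list was not alone in this. With the T cell markers r was 0.71 for Ms4a4b, 0.68 for Ms4a4c, 0.66 for Ms4a6b and 0.38 for Ms4a6c. Without anti-RGMb mouse 1 these were 0.46, 0.36, 0.35 and -0.37. Eosinophil markers gave -0.71, -0.76, -0.61 and -0.71 in the same order, and -0.13, -0.11, 0.13 and 0.03 without that mouse. Monocyte markers gave 0.12, 0.18, 0.35 and 0.17, and 0.39, 0.60, 0.75 and 0.58 without it. With the natural killer cell markers r was 0.93 for Ms4a6b, 0.81 for Ms4a4c, 0.79 for Ms4a4b and 0.66 for Ms4a6c, and 0.92, 0.71, 0.64 and 0.35 without anti-RGMb mouse 1. With the alternatively activated macrophage genes r was -0.81 for Ms4a4c, -0.80 for Ms4a4b and Ms4a6c and -0.63 for Ms4a6b, and -0.25, -0.38, -0.23 and 0.12 without that mouse. The same mouse was lowest of the anti-RGMb group in eosinophil markers (1.15, others at least 2.37), neutrophil markers (-0.34, others at least 0.51) and alternatively activated macrophage genes (0.76, others at least 1.20). What set this mouse apart was not tested.

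**Figure D5:**
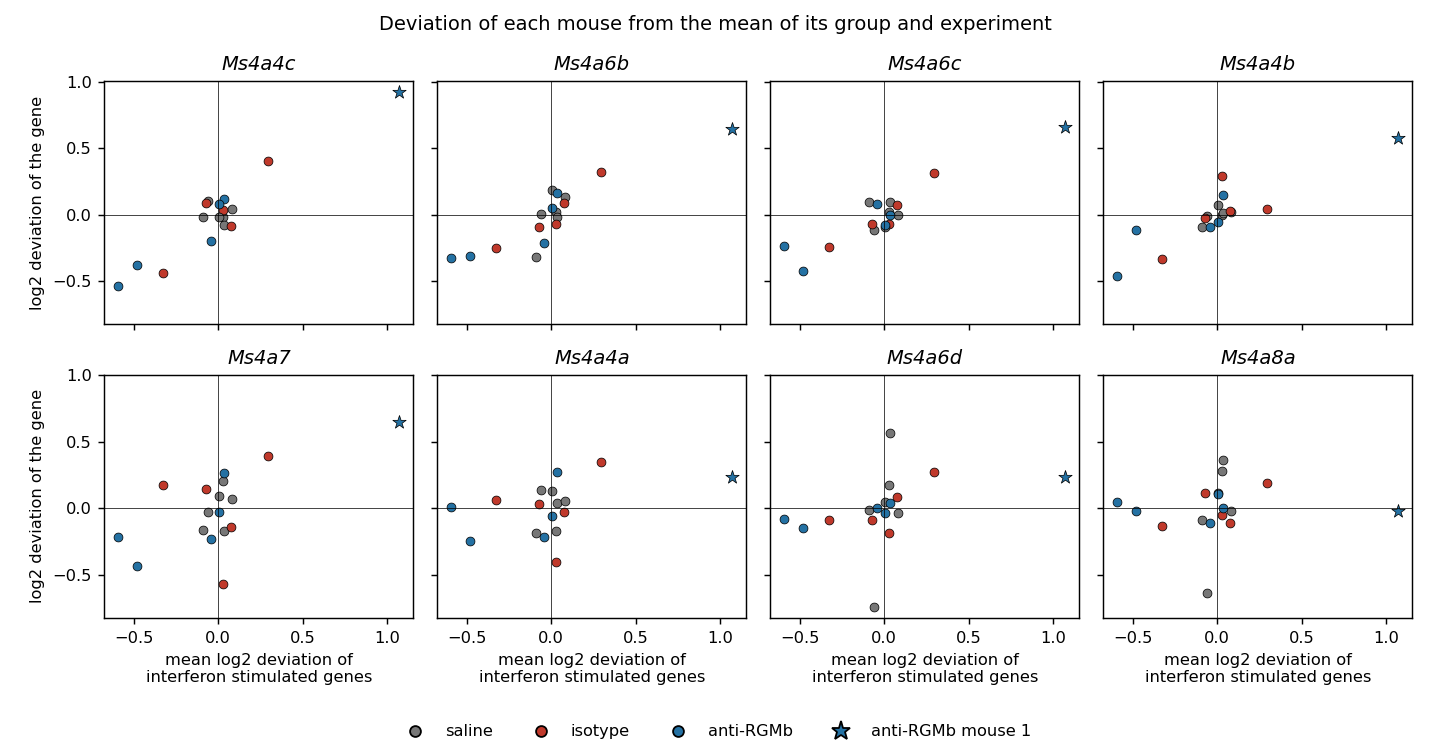
Deviation of each gene in each mouse from the mean of its group and experiment (y axis, log2) against the mean deviation of interferon stimulated genes (x axis, log2), coloured by group, with anti-RGMb mouse 1 as a star at 1.07 on the x axis. Ms4a4c, Ms4a6b, Ms4a6c and Ms4a4b rise along the diagonal, while Ms4a6d and Ms4a8a do not.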

How the data were processed

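Lung RNA was measured on 1 array per mouse, 17 in all. Each value deposited by the authors is a probe set's intensity on a linear scale, from RMA per the submitters' processing notes. RMA corrects background, normalizes arrays and summarises probes; its version and settings are not given in the sources used here. As array medians differed between experiments, every model had a term for the experiment. Of 24679 probe sets, 21354 had 1 gene symbol, 1275 several and 2050 none; single-symbol sets were used, the brightest where a gene had several (893 genes).

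Log2 was taken without an added constant. limma 3.58.1 in R 4.3.3 fitted group means plus experiment to all 19751 genes (eBayes, prior degrees of freedom 4.32), 2-sided, and calls were made at an adjusted p under 0.05 (Benjamini-Hochberg, all genes of a comparison). The fit was tested on simulated data. Values after ± are standard errors unless SD is written. A gene's groups do not overlap where no value of one group crosses the other in either experiment.

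The genes and gene lists were chosen with earlier results of these data known. Named genes are the 8 genes, all other Ms4a genes with Tmem176a and Tmem176b, the partner genes, the 3 nearest genes of each gene, and examples from the lists with the smallest p between anti-RGMb and isotype. Residuals of 16 pairs of same-numbered mice correlated at -0.60 to 0.30, above 0.1 in 3, so mice were treated as unpaired. Promoter windows come from the RefSeq table on GRCm38.p6. Alternatives covered the experiment term, the replicate block, left-out mice, centring, quantile normalization, an added constant, dim genes, probe sets, array weights and the variance prior.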

Additional observations from a re-analysis of the deposited data

Results flagged for a closer look

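In a check for single mice that lie far from the rest of their group (60 groups of 5 or 6 mice, of which chance marks about 1 in 20), 5 stood out. Of these, 4 were anti-RGMb mouse 1: Ms4a4c at 1.53 (next highest 0.34), Ms4a6b at 1.34 (0.44), Ms4a6c at 2.00 (1.13) and Ms4a6d at 1.84 (1.52), each as log2 above saline. The fifth was Tmem176a in anti-RGMb mouse 3-2 at -0.20 (next lowest 0.14).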

How the results depend on the processing

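Under 8 alternatives other than left-out mice, a single experiment or a fit without the experiment term, 191 of 192 differences of the 8 genes kept their direction and their side of the threshold, and 1 (Ms4a6b, anti-RGMb minus saline, with array weights) newly passed it. Some of this was fixed in advance. Each of the 8 genes has 1 probe set, so averaging probe sets left its differences unchanged. Leaving out dim genes or changing the variance prior could move a p-value but not a difference. Without the experiment term the level gap between experiments entered the error: 34 genes were higher and 1 lower (isotype minus saline), 0 and 0 (anti-RGMb minus isotype) and 10 and 0 (anti-RGMb minus saline), the 8 genes gave 2, 0 and 0 calls and the other family genes 0 in each, while Ms4a2, Tmem176a and Tmem176b turned to 0.0011, 0.024 and 0.030 for anti-RGMb minus isotype. With fewer mice, experiment 1 alone gave 1740 higher and 2285 lower, 661 and 618, and 119 lower over saline, 2 of the 8 genes and 0 other family genes for anti-RGMb minus isotype, 3 other family genes for isotype minus saline and 0 for anti-RGMb minus saline. Experiment 2 alone gave 524 higher and 129 lower over saline, and 1 and 0 other family genes in the antibody's comparisons. Reversals for anti-RGMb minus isotype in experiment 1 alone were Ms4a4c (0.34), Ms4a6b (0.062) and Tnfrsf18 (0.064), and in experiment 2 alone Ms4a4b (-0.16); for anti-RGMb minus saline they were Ms4a4b (0.22) and Ms4a4d (0.17) in experiment 1 and Ms4a15 (0.040) in experiment 2. Same-numbered mice were not shown to be paired; the replicate block gave 233 genes lower over saline (442 without it) and 0 other family genes for anti-RGMb minus isotype. Over saline, array weights gave 1297 higher and 1244 lower and 4 other family genes, the trended robust prior 2, centring 809 lower and leaving out the dimmest 40% of genes 680 lower. Centring, quantile normalization and array weights left 1 other family gene for anti-RGMb minus isotype. Leaving out 1 mouse gave 207 to 654 genes lower over saline (lowest without saline mouse 1-2 and also low without anti-RGMb mouse 2, 3 or 1-2 or saline mouse 2-2), 0 to 4 other family genes over saline (4 without anti-RGMb mouse 3-2, 2 without isotype mouse 2-2) and 0 to 2 for anti-RGMb minus isotype, and 0 without anti-RGMb mouse 1 or 3 or isotype mouse 1-2. Small values turned sign: Ms4a4b for anti-RGMb minus isotype (-0.080 without anti-RGMb mouse 1 and -0.012 without isotype mouse 1, range -0.080 to 0.16) and for anti-RGMb minus saline (-0.19 to 0.036), and Ms4a2 for anti-RGMb minus isotype (-0.20 to 0.058). The cause was not tested beyond these constructions. The number of mice and signals near the dim end of the arrays limit the values.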
